A study of Mus musculus with 8 samples.

Results

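Satellite glial cell markers were followed in mouse dorsal root ganglia (DRG) over a time course of paw inflammation. The group held 10 genes, Apoe, Fabp7, Glul, Slc1a3, Gja1, Cdh19, Ednrb, Sox10, Gfap and S100b, which were found by their symbols among the 24421 genes of the count table. All 10 passed the filter on low counts together with 17328 genes in all. The group was chosen by a readout of these same libraries, namely the lower Apoe level at 30d, and the other 9 genes were set beside it as markers of the same cells. Apoe at 30d is therefore given as a description with no test.

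RNA was sequenced from the lumbar DRG on the side of the left hind paw of wild-type C57BL/6J mice, in 4 groups of 2 libraries. The age at the start is given as 8 weeks by the submitters and as a range that begins there in the study's methods. The 0d group came from naive mice that received no injection, and no vehicle-injected group was analysed here. The 1d, 3d and 30d groups received 20 µL of 1% carrageenan, a seaweed polysaccharide that causes local inflammation, under the skin of the paw, and were taken 1, 3 and 30 days later. Each library pooled the ganglia of 2 to 3 mice, so the spread between libraries is a spread between pools. Mice of the 30d group were also older when they were taken, and age and time since injection cannot be told apart. The libraries held 44123208 to 73580338 counts. The labels name the cells as DRG neurons, but whole ganglia were dissected, and the sum of the 10 markers ranged from 3140 to 3740 CPM (counts scaled to library size) beside 23300 to 24900 CPM for 11 sensory neuron markers.

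Satellite glial cells wrap the cell bodies of sensory neurons in a thin sheath. They clear glutamate and potassium from the space around the neuron, are coupled to each other by gap junctions, and supply lipids through apolipoprotein E. They share a neural crest origin with Schwann cells, and Sox10, S100b, Cdh19 and Ednrb are made by both. In whole ganglia, fewer cells of a type and less RNA per cell cannot be told apart.

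The sequence upstream of the start site was read for the members that the results turn on. RefSeq (GRCm38.p6, the same assembly as mm10) gave a start site for 8 of the 10 genes. That of Ednrb lay 775 bases inside the gene of the count table, so its window falls within that gene. The others lay at the start of theirs. Cdh19 and Sox10 had no entry. The 250 bases before each start were searched on both strands for the Sox sites ACAAAG and ACAATG, for AGGTCA, the core site of nuclear receptors such as the clock repressors REV-ERB, and for CACGTG, the E-box bound by the clock activators. None of these letters overlapped another match. The 3 sequences below are those of Apoe, which holds both Sox sites, and of Fabp7 and Glul, whose levels moved in opposite directions, and capitals mark the matches.
Apoe (chr7:19699189-19699438, minus strand): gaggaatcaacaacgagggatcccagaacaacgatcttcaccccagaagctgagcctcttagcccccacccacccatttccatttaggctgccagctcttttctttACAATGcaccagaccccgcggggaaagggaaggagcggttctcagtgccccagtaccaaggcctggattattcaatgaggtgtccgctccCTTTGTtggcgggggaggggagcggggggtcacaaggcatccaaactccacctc
Fabp7 (chr10:57784673-57784922, plus strand): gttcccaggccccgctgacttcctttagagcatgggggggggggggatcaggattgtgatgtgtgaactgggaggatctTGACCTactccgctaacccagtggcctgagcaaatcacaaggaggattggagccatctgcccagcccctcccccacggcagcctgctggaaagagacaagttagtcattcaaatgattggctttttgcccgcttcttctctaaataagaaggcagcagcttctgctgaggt
Glul (chr1:153899679-153899928, plus strand): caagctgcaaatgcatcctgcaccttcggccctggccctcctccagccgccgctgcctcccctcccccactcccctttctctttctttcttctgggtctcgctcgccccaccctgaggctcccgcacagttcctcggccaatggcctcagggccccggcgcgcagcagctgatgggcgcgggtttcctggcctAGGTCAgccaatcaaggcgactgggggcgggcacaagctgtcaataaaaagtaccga

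Apoe held ACAATG on its own strand 144 bases and ACAAAG on the opposite strand 54 bases before the start. No other of the 8 promoters held either, while 25.2% of 32851 mouse promoters of the same length did. AGGTCA stood in 3 of the 8, in Fabp7 on the opposite strand at 171 bases, in Glul at 57 bases and in Gfap on the opposite strand at 85 bases, against 14% of all promoters. CACGTG stood in 0 of the 8 and in 6.02% of all. These matches describe letters in a window and were not tied to binding.

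Levels were compared between the genes per kb of gene model. Apoe stood far above the other markers, with a mean of 1340 CPM per kb over the 8 libraries, and ranked 9 of 17328 genes. S100b, a calcium-binding protein of glia, followed at 297 CPM per kb. Glul (glutamine synthetase) at 153 CPM per kb and Fabp7 (brain lipid-binding protein, a fatty acid carrier of immature and satellite glia) at 135 CPM per kb came next, and their ranges over the libraries overlapped. Sox10, the transcription factor that specifies the glia of the neural crest, stood at 49.1 CPM per kb. Ednrb (the endothelin B receptor) at 29.3 and Cdh19 (a cadherin of crest-derived glia) at 23.6 CPM per kb also overlapped. Gja1 (connexin 43, the gap junction protein) had 9.85, Slc1a3 (the glutamate transporter GLAST) 3.65 and Gfap (glial fibrillary acidic protein) 0.291 CPM per kb. Beside these 2 pairs, the ranges of neighbours in this order did not overlap. The median tested gene had 6.1 CPM per kb, so 8 of the 10 markers lay above it and Slc1a3 and Gfap below. Gfap rested on 35 to 100 counts per library, and its level is the least certain of the group.

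**Figure D1:**
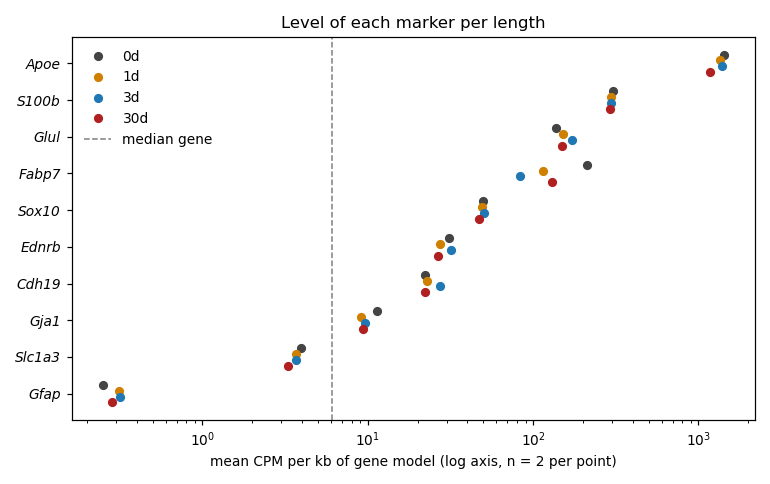
Mean CPM per kb of gene model (log axis) of each marker at 0d, 1d, 3d and 30d, 2 libraries per point, with the median tested gene as a dashed line. Apoe lies at 1180 to 1430 CPM per kb at the 4 time points and Gfap below 0.32 CPM per kb.

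The lipid carriers are described first. Apoe, the main apolipoprotein secreted by glia, was measured at 2286 and 2243 CPM at 0d, 2095 and 2221 CPM at 1d, 2179 and 2184 CPM at 3d, and 1819 and 1911 CPM at 30d. Both 30d libraries were below the other 6, and the 1d and 3d libraries lay just below the 0d pair. Against 0d the log2 fold change of Apoe was -0.07 ± 0.039 (SE) at 1d and -0.05 ± 0.039 at 3d, with adjusted p of 1 and 0.98 in edgeR's quasi-likelihood test. At 30d it was -0.28 ± 0.039, a level 17.6% lower. Set against the later days, the 30d level of Apoe differed by -0.23 ± 0.039 from 3d and by -0.21 ± 0.039 from 1d, comparisons that share the 30d libraries. Without 30d replicate 1 the difference from 0d was -0.25, and without 30d replicate 2 it was -0.32.

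30d replicate 1 stood apart in blood cell markers. Its 5 red blood cell markers summed to 515 CPM and its 3 neutrophil markers to 164 CPM, where 30d replicate 2 had 276 and 71.2 CPM and the other libraries 141 to 282 and 31.8 to 106 CPM. The 12 macrophage markers, a cell type that also makes Apoe, summed to 188 and 173 CPM at 0d, 193 and 193 CPM at 1d, 189 and 193 CPM at 3d, and 216 and 187 CPM at 30d, so 30d replicate 1 was highest and 30d replicate 2 lay below the 1d and 3d libraries. The 10 myelinating Schwann cell markers summed to 5730 and 8060 CPM at 30d, against 11300 and 8260 CPM at 0d, 8040 and 8100 CPM at 1d and 9460 and 9380 CPM at 3d. The part of these cells in the Apoe level was not tested.

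Fabp7 had the widest range of the 10 genes as a ratio, with its highest library 2.85 times its lowest. It was measured at 148 and 176 CPM at 0d, 90.9 and 83.2 CPM at 1d, 61.7 and 65.5 CPM at 3d, and 62.9 and 136 CPM at 30d. Both 0d libraries were above the other 6, and the 2 30d libraries split, with replicate 1 at the 3d level and replicate 2 close to 0d. Over all 8 libraries the log2 fold change of Fabp7 was -0.89 ± 0.396 at 1d (adjusted p = 1, edgeR), -1.35 ± 0.398 at 3d (adjusted p = 0.731) and -0.70 ± 0.391 at 30d (adjusted p = 0.558), and none passed the threshold of 0.05. The fit takes 1 spread per gene from all groups, and the SD of Fabp7 was 51.6 CPM at 30d and 2.65 to 19.7 CPM at the other times. The fall of Fabp7 passed in 3 of 18 alternatives at 1d and in the same 3 at 3d. These left out 30d replicate 1, left out 30d replicate 2, or fitted only the 2 groups compared. Without 30d replicate 1 or 2 its log2 fold change stayed at -0.894 at 1d and -1.35 at 3d. The 30d difference of Fabp7 itself was -0.255 without 30d replicate 1 (adjusted p = 0.224) and -1.36 without 30d replicate 2 (adjusted p = 0.00105). In fits of only the 2 groups compared, its adjusted p was 0.00347 at 1d and 0.00116 at 3d.

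**Figure D2:**
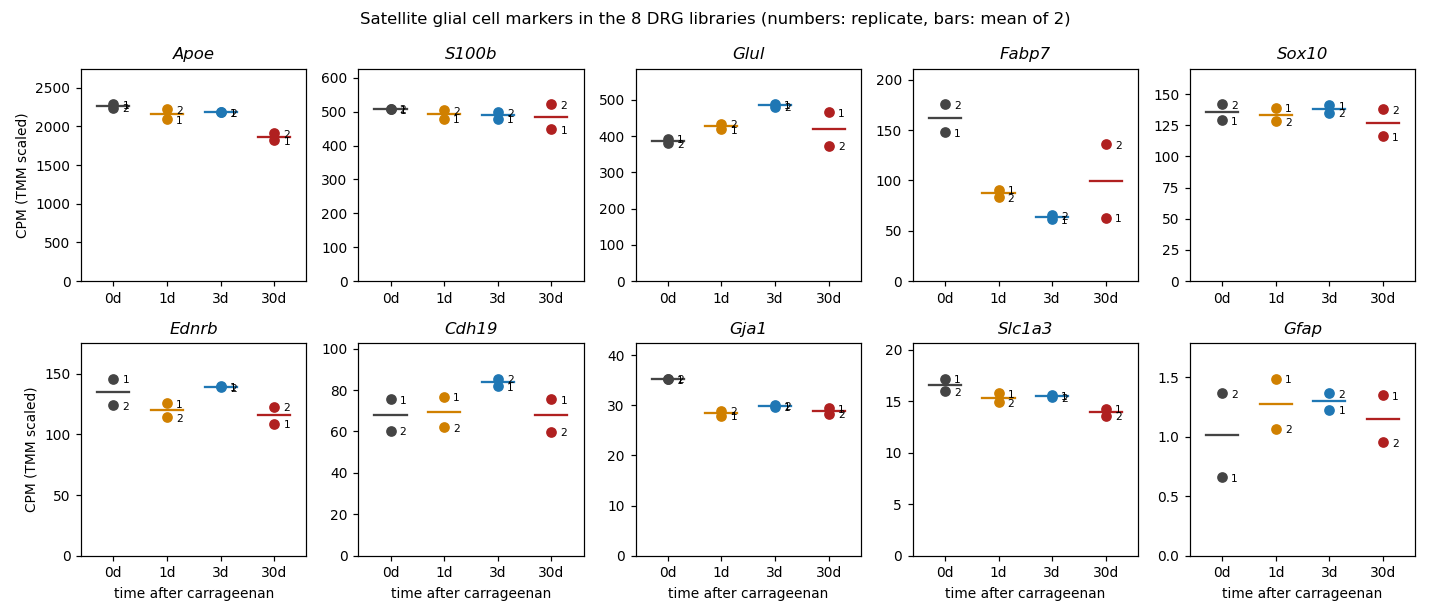
CPM (TMM scaled) of the 10 markers at 0d, 1d, 3d and 30d, each panel from 0, with the 2 libraries of a time point as numbered points and their mean as a bar. Apoe is lowest in both 30d libraries, Gja1 is highest in both 0d libraries, and Fabp7 and Glul split at 30d.

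The genes of glutamate handling did not move together. Glul, which turns glutamate into glutamine, was measured at 393 and 380 CPM at 0d, 419 and 435 CPM at 1d, 489 and 481 CPM at 3d, and 467 and 374 CPM at 30d. The 1d and 3d libraries lay above both 0d libraries, and the 30d libraries split in the direction opposite to Fabp7. The log2 fold change of Glul was 0.15 ± 0.093 at 1d (adjusted p = 1, edgeR), 0.33 ± 0.093 at 3d (adjusted p = 0.527) and 0.12 ± 0.093 at 30d (adjusted p = 0.645). The rise at 3d passed in 3 of 18 alternatives. These were the fits without 30d replicate 1 or 2 and a fit of 0d and 3d alone (adjusted p = 0.000787, edgeR). Without 30d replicate 1 or 2 the rise was 0.328 and 0.329. Without 30d replicate 2 the 30d difference of Glul from 0d was 0.27 with an adjusted p of 0.0114, and without 30d replicate 1 it was -0.05. Part of the Glul signal is uncertain. Of the 50-base words of its longest GENCODE transcript, 14.2% also occur in other genes, 11.3% in the pseudogene Glns-ps1. In the count table, 108 of its 2807 exon bases overlap Mir8114. Of the other 9 markers, none overlapped the exons of another gene, and at most 0.271% of the words were shared.

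Slc1a3, which takes up glutamate, was measured at 17.2 and 16 CPM at 0d, 15.8 and 14.9 CPM at 1d, 15.6 and 15.4 CPM at 3d, and 14.3 and 13.6 CPM at 30d. Like Apoe, it had its lowest 2 libraries at 30d and its highest 2 at 0d. Its log2 fold change at 30d was -0.25 ± 0.0991 and did not pass (adjusted p = 0.328, edgeR). The 11 other genes of glutamate and glutamine handling gave no call in any of the 6 comparisons. Their median log2 fold change against 0d lay between -0.01 and 0.02, and their summed level between 1420 and 1470 CPM in the 8 libraries. Got2, the mitochondrial aspartate aminotransferase and the highest of them per kb, had a log2 fold change of -0.02 ± 0.044 at 30d.

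Coupling between the glial cells rests on connexin 43. Gja1 was measured at 35.2 and 35.3 CPM at 0d, 27.9 and 28.9 CPM at 1d, 29.7 and 30.0 CPM at 3d, and 29.4 and 28.3 CPM at 30d. All 6 libraries from injected mice lay below both 0d libraries, by more than the spread within any day. The log2 fold change was -0.31 ± 0.0706 at 1d (adjusted p = 0.12, edgeR), -0.24 ± 0.0695 at 3d (adjusted p = 0.363) and -0.29 ± 0.0697 at 30d (adjusted p = 0.13), so none passed over all genes. The unadjusted p was 0.00059, 0.00371 and 0.000992. A contrast of the mean of 1d, 3d and 30d against 0d was set up after this pattern had been seen. It called 0.0404% of genes, Gja1 not among them. In this contrast the log2 fold change of Gja1 was -0.28 ± 0.056, given with no test. With a library left out it ranged from -0.288 to -0.269.

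Among 10 other connexin, pannexin and junction genes, 1 passed in 1 comparison. Gjb6 (connexin 30) was measured at 5.84 and 3.13 CPM at 0d, 3.62 and 3.26 CPM at 1d, 4.29 and 4.31 CPM at 3d, and 10.2 and 7.43 CPM at 30d. It rose by 1.36 ± 0.26 on the log2 scale between 1d and 30d (adjusted p = 0.0353, edgeR), and its change from 0d to 30d was 0.98 ± 0.25 (adjusted p = 0.163). The call was lost without either 1d library, either 3d library or 30d replicate 1, with adjusted p of 0.0718 to 0.529, and without robust estimation (0.0558). Panx2, a pannexin and the highest of this list per kb, differed from 0d by 0.03 ± 0.048 at 30d. The median of the 10 genes was -0.07 at 1d and -0.10 at 3d, and it was 0.06 for 30d against 0d.

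The lineage and adhesion markers gave no call in any comparison. Sox10 was measured at 129 and 142 CPM at 0d, 139 and 128 CPM at 1d, 141 and 135 CPM at 3d, and 116 and 138 CPM at 30d, and the libraries of every later day overlapped those of 0d. Its log2 fold change ranged from -0.09 ± 0.0789 at 30d to 0.02 ± 0.0788 at 3d. Cdh19 was measured at 75.7 and 60.4 CPM at 0d, 76.7 and 62.0 CPM at 1d, 81.9 and 85.5 CPM at 3d, and 75.6 and 59.9 CPM at 30d. The 3d pair of Cdh19 was above the other 6 libraries, and the difference from 0d of 0.30 ± 0.178 did not pass (adjusted p = 0.96, edgeR). With a library left out it ranged from 0.144 to 0.47.

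Ednrb, the receptor through which endothelins act on satellite glia, was measured at 146 and 124 CPM at 0d, 126 and 114 CPM at 1d, 140 and 139 CPM at 3d, and 109 and 123 CPM at 30d. Its 30d libraries lay below both 0d and both 3d libraries. The log2 fold change of Ednrb was -0.21 ± 0.0835 against 0d (adjusted p = 0.354, edgeR) and -0.27 ± 0.0833 against 3d (adjusted p = 0.214). With a library left out the former ranged from -0.327 to -0.0903. The latter passed in 3 of 18 alternatives, DESeq2 (0.0371) and edgeR without 0d replicate 1 or 2 (0.0491 and 0.0473), and its adjusted p reached 0.8 in the others. Of the 6 other genes of the endothelin system, the ligands, the converting enzymes and the A receptor, none passed in any comparison, and their summed level stayed between 229 and 246 CPM. Ece1, a converting enzyme and the highest of them per kb, differed from 0d by -0.06 ± 0.046 at 30d.

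S100b was measured at 507 and 509 CPM at 0d, 480 and 505 CPM at 1d, 480 and 499 CPM at 3d, and 448 and 523 CPM at 30d, and its log2 fold changes of -0.04, -0.05 and -0.06 were each close to their SE of 0.06. Gfap, which astrocytes and reactive satellite glia build into filaments, was measured at 0.662 and 1.37 CPM at 0d, 1.49 and 1.07 CPM at 1d, 1.23 and 1.37 CPM at 3d, and 1.35 and 0.957 CPM at 30d. All its groups overlapped. Its log2 fold changes of 0.33 ± 0.409, 0.35 ± 0.401 and 0.17 ± 0.404 were within 1 SE of 0 and the adjusted p was 1, 0.999 and 0.897, so changes of Gfap of this size could not be told from the spread between pools.

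**Figure D3:**
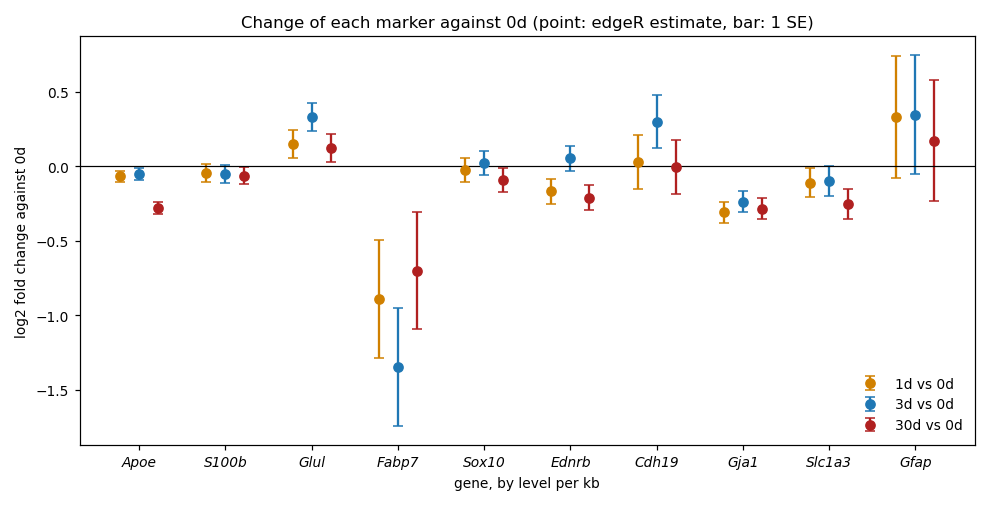
Log2 fold change of each marker against 0d at 1d, 3d and 30d (point: edgeR estimate, bar: 1 SE of the fit over all 8 libraries). The bars of Fabp7 and Gfap are the longest, at about 0.4, and Apoe has the shortest, at 0.039.

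Over all genes, edgeR called 0.346% of 17328 at 1d against 0d, 0.219% at 3d and 0.0231% at 30d, and 0.289% when 3d was set against 1d. With 30d set against 3d it called 0.935%, and with 1d as the reference 0.571%. Of the 10 markers it called 0 at 1d, 0 at 3d and 0 at 3d against 1d. An unadjusted p under 0.05 was reached there by 1, 3 and 1 of them, beside 4.47%, 5.94% and 4.24% of all genes, and DESeq2 called 0 in each of these 3. In the 3 comparisons that involve 30d edgeR called 1 marker each, which was Apoe, the gene picked for it, and nothing is read from that count. At 30d, 8 of the 10 markers had a negative log2 fold change against 0d, or 7 of 9 without Apoe, which was picked for it. The median was -0.15, or -0.09 without Apoe, where the median over all genes was 0.00 and 49.9% of all genes had a positive value.

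The libraries of the markers did not overlap with 0d for 6 of 10 genes at 1d, 7 at 3d and 5 at 30d, where 31.9%, 39.5% and 39.6% of all genes did not overlap. Of the 9 markers other than Apoe, Fabp7, Slc1a3 and Gja1 had all 6 later libraries below both 0d libraries, an order that 4.1% of all genes showed. Apoe had this order too, but the order takes in the 30d libraries for which it was picked. For Slc1a3 both 30d libraries lay below all 6 earlier ones, an order that 8.83% of all genes showed and for which Apoe was picked. Apoe is among the genes counted here, so nothing is read from the 30d counts. The comparisons share the 0d libraries, and the counts are descriptions.

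Set against the other markers, Apoe was lower at 30d by more than most of them but not by more than all. The log2 fold change at 30d of the other 9 ranged from -0.70 (Fabp7) to 0.17 (Gfap) with a median of -0.09, and those of Fabp7 and Gja1 were below that of Apoe. Without 30d replicate 2 Gja1 was at -0.259, above Apoe at -0.316. Without 30d replicate 1 Fabp7 (-0.255) and Gja1 (-0.316) both stayed below Apoe (-0.247). The other 9 summed to 1451 and 1443 CPM at 0d, 1376 and 1372 CPM at 1d, 1440 and 1452 CPM at 3d, and 1324 and 1397 CPM at 30d. As a share of the 10 markers, Apoe made up 61.2% and 60.8% in the 0d pair, 60.3% and 61.8% in the 1d pair, 60.2% and 60.1% in the 3d pair, and 57.9% and 57.8% in the 30d pair. Both 30d shares lay below the other 6. On the log2 scale, Apoe minus the mean of the other 9 was 5.11 ± 0.074 for the 0d pair, 5.15 ± 0.14 for the 1d pair, 5.12 ± 0.018 for the 3d pair and 4.98 ± 0.011 for the 30d pair (SD, n = 2). The difference of -0.13 between 30d and 0d became -0.19 with the summed CPM of the other 9. With their median it was 0.11, but the pooled SD of the 0d and 30d pairs was then 0.32, against 0.053 with the mean. The turn to a positive value therefore lay within the spread between libraries of a day.

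**Figure D4:**
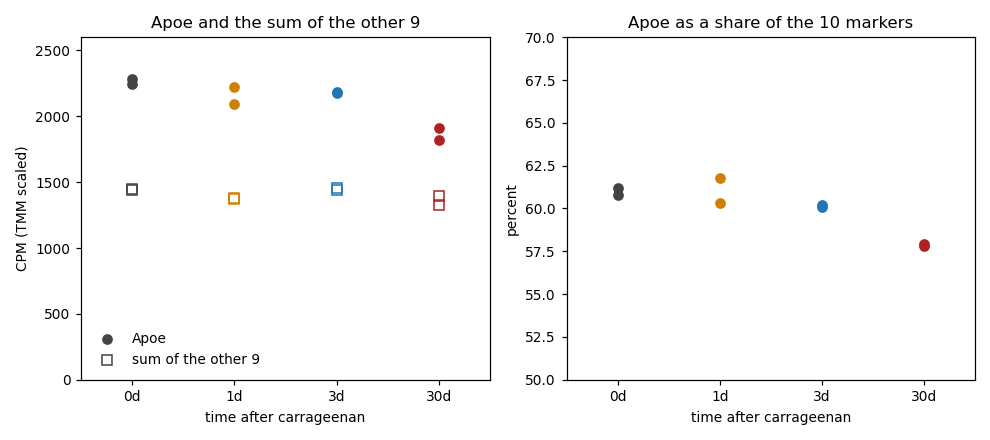
Left, CPM (TMM scaled) of Apoe (filled circles) and of the sum of the other 9 markers (open squares) in each library. Right, Apoe as a percent of the 10 markers on an axis from 50 to 70%, with both 30d libraries at 57.8 to 57.9% and the other 6 at 60.1 to 61.8%.

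The 10 markers did not vary as 1 group across the libraries. Of the 45 pairs, 29 had a Pearson r above 0 over the 8 libraries, from -0.96 to 0.81. The highest was Apoe with Slc1a3 (r = 0.81, rho = 0.74), which fell to 0.45 without the 2 libraries farthest from the median Apoe level, the 30d pair. The lowest was Fabp7 with Glul (r = -0.96, rho = -0.90, and r = -0.99 without the 2 farthest libraries). All values share the same libraries and scaling.

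Fabp7 and Glul were set beside 15 genes of the circadian clock and 7 glucocorticoid-induced genes, lists that were chosen after these values were seen and are given with no test. Over the 8 libraries the size of r was at least 0.8 for 7 of the 15 clock genes with Fabp7 and for 5 with Glul, and for 2 and 5 of the 7 glucocorticoid-induced genes, with Per1 in both lists. Of all tested genes, 2.78% reached this size with Fabp7 and 3.13% with Glul. With Apoe, 0 clock genes reached it, and with Gja1 1 did, beside 6.11% and 1.58% of all tested genes. Of the glucocorticoid-induced genes, 0 reached it with either. All 7 glucocorticoid-induced genes had a positive log2 fold change at 3d against 0d, with a median of 0.58, and a negative one at 30d against 3d, with a median of -0.42. The weakest clock gene was Nr1d2, with r = -0.32 for Fabp7 and 0.17 for Glul, and the weakest of the other list was Ddit4, with -0.16 and 0.35. Arntl, Per1 and Fkbp5 are shown because their r was among the farthest from 0. Arntl, the clock activator BMAL1, was measured at 5.27 and 6.23 CPM at 0d, 2.8 and 2.9 CPM at 1d, 2.44 and 2.19 CPM at 3d, and 2.48 and 5.88 CPM at 30d, and Per1, a clock repressor that glucocorticoids induce, at 34.9 and 26.3, 32.9 and 42.2, 50.3 and 51.9, and 53.4 and 31.0 CPM. The 2 30d libraries split for both genes as they did for Fabp7 and Glul. Over the 8 libraries Fabp7 had r = 0.97 (rho = 0.88) with Arntl and r = -0.93 (rho = -0.86) with Per1, and Glul had r = -0.94 (rho = -0.93) with Arntl and r = 0.94 (rho = 0.86) with Per1. Without the 2 libraries farthest from the median, r was 0.94 and -0.93 for Fabp7 and -0.94 and 0.94 for Glul. With Fkbp5, a glucocorticoid-induced gene, r was -0.86 (rho = -0.79) for Fabp7 and 0.93 (rho = 0.86) for Glul, and -0.87 and 0.91 without the 2 farthest libraries. The time of day of dissection is not given in the sources used here, and its part in the Fabp7 and Glul levels was not tested.

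**Figure D5:**
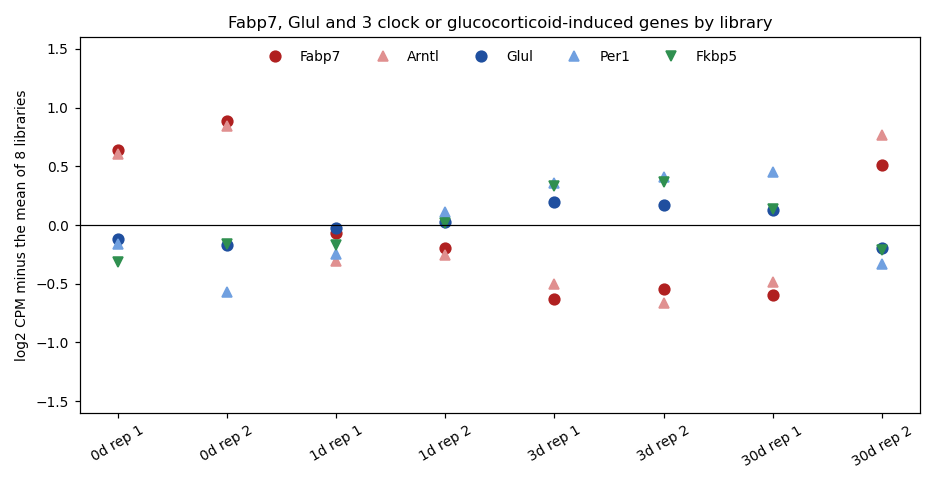
Log2 CPM minus the mean of the 8 libraries for Fabp7, Arntl, Glul, Per1 and Fkbp5 in each library. Fabp7 and Arntl are above 0 in both 0d libraries and in 30d replicate 2 and below 0 in the other 5, and Glul is below 0 in those same 3 and, by a smaller step, in 1d replicate 1.

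The genes whose pattern was most like that of Apoe were sought among 10401 genes with a mean of at least 10 CPM. They were Cd9 (r = 0.98, rho = 0.76), a tetraspanin found in glia, Fbxo25 (r = 0.975), Npm1 (r = 0.974), Kpna3 (r = 0.971) and Metrnl (r = 0.97, rho = 0.98). Without the 2 libraries farthest from the median Apoe level, r fell to 0.73 to 0.88 for the first 4 and was 0.97 for Metrnl. Most like the mean of the other 9 markers were Mapk10 (r = 0.994), Mfsd2a (r = 0.988), Chmp1b (r = 0.97), Mrpl2 (r = 0.97) and Kcnj10 (r = 0.957), the last of which is the inward rectifier potassium channel Kir4.1 of satellite glia. With 8 libraries and this many genes, high values of r are common, and these are descriptions.

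Related glial genes were examined as lists. Of 12 other glial genes of the ganglion, none passed in any of the 6 comparisons, and 9 of 12 had a negative log2 fold change at 30d against 0d, with a median of -0.12. Kcnj10 was measured at 104 and 108 CPM at 0d and at 78.4 and 93.1 CPM at 30d, a log2 fold change of -0.31 ± 0.077 (adjusted p = 0.162, edgeR), and both 30d libraries lay below the 0d pair.

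Of 21 genes of lipoprotein and cholesterol transport, the receptors, lipases, transfer proteins and efflux pumps around Apoe, none passed in any comparison. At 30d, 9 had a positive and 12 a negative log2 fold change against 0d, with a median of -0.01, and the list summed to 2920 to 3230 CPM over the libraries. Apod, another secreted lipid carrier of glia and the highest of the list per kb, was measured at 1190 and 1040 CPM at 0d and 1040 and 1230 CPM at 30d, so its groups overlapped.

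Of 11 genes linked with glial reactivity, 9 had a negative log2 fold change at 30d against 3d and 2 of these passed the test, in a comparison that called 0.935% of all genes. Serpina3n, a protease inhibitor induced in reactive glia, was measured at 175 and 202 CPM at 0d, 192 and 217 CPM at 1d, 220 and 220 CPM at 3d, and 174 and 173 CPM at 30d, and fell by 0.35 ± 0.068 on the log2 scale between 3d and 30d (adjusted p = 0.0381, edgeR). Vim (vimentin) was measured at 635 and 568 CPM at 0d, 564 and 587 CPM at 1d, 621 and 630 CPM at 3d, and 526 and 540 CPM at 30d and fell by 0.23 ± 0.048 (adjusted p = 0.037). Both calls were lost without either 3d library or either 30d library, with adjusted p of 0.0896 to 0.393 for Serpina3n and 0.0649 to 0.456 for Vim, and they were also lost with library totals alone (0.0519 and 0.0563) and without robust estimation (0.0551 and 0.0789). That of Vim was also lost with the length trend removed (0.0698). For both genes the 30d libraries lay below the 6 earlier ones, an order that 8.83% of all genes showed. S100a10, the highest of the list per kb, differed from 0d by -0.07 ± 0.044 at 30d.

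Schwann cells share several of the markers. None of the 10 myelinating Schwann cell markers passed in any comparison, with 9 of 10 negative at 30d against 0d and a median of -0.30. Of 4 non-myelinating Schwann cell markers, Ngfr, the low-affinity neurotrophin receptor, was measured at 819 and 900 CPM at 0d, 918 and 965 CPM at 1d, 1070 and 1040 CPM at 3d, and 850 and 817 CPM at 30d. Ngfr rose by 0.30 ± 0.046 from 0d to 3d (adjusted p = 0.0152, edgeR) and fell by 0.34 ± 0.046 from 3d to 30d (adjusted p = 0.00292). The rise was lost without 0d replicate 1 (adjusted p = 0.0845), either 3d library (0.384 and 0.259) or robust estimation (0.0504), and the fall without either 3d library (0.109 and 0.0545). The 4 markers summed to 2090 to 2350 CPM.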

How the data were processed

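RNA from DRG of mice was sequenced in 8 libraries, 2 for each of 0d, 1d, 3d and 30d. Per the submitters' processing notes and the file header, the authors used cutadapt 2.10 for adapters and STAR 2.7.5a for alignment to mm10, and deposited raw counts per gene from featureCounts 2.0.1, without regard to strand, and gave a read pair that overlapped several genes to each of them. No normalization or filter had been applied. Groups were taken from the sample titles, and 0 columns were left unused.

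Counts were filtered with filterByExpr, scaled by TMM and fitted with the quasi-likelihood test of edgeR 4.0.16 (R 4.3.3, limma 3.58.1, robust) over all 8 libraries. Adjusted p-values are Benjamini-Hochberg over 17328 genes with a threshold of 0.05. SEs were derived from the fold change and its F statistic (|log2FC|/√F), values after ± are SEs unless marked SD, and log2 CPM has a prior count of 2. DESeq2 1.42.0 was an alternative, with other scalings, filters and samples. CPM per kb uses the deposited gene length. Total counts of 44123208 to 73580338 leave the spread between pools as the main error, and 2 against 2 libraries cannot give an exact permutation p below 0.333. Libraries of the same day differed by 7.22 to 25.6 times the chi-square expected from counting alone, so none was a copy. Differences between replicates 1 and 2 correlated by -0.01 to 0.04 over 6 pairs of groups, so no pairing by replicate number was seen over all genes. This cannot exclude a block that acts on some genes. With a replicate block, called genes went from 60 to 73 at 1d, 38 to 50 at 3d and 4 to 69 at 30d against 0d.

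The members and gene lists were chosen with earlier results of these data known, and the circadian clock and glucocorticoid lists after values were seen. Named are the 10 members, of every other list, those 2 apart, each gene past the threshold (at most 6 by p in a comparison) and the highest gene per kb, and the 5 genes most like Apoe and most like the mean of the other 9, and Kcnj10 is named again from that search. Some genes that this rule names are not reported here. Blood cell, fibroblast, endothelial, mural, spinal cord glia, melanocyte and muscle markers were checked as other cells a dissection could hold.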

Additional observations from a re-analysis of the deposited data

Results flagged for a closer look

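Differences between the later days were seen for the following genes, each past the threshold of edgeR's quasi-likelihood test over all genes in a comparison of 2 days after injection. The circadian clock and glucocorticoid lists, chosen after values were seen, also held genes past it and are left out here. Apoe is listed as a value with no test, since it was picked for its 30d libraries. The log2 fold change of Apoe was -0.23 for 30d against 3d and -0.21 for 30d against 1d.

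Vim (-0.23), Serpina3n (-0.35) and Ngfr (-0.34) were lower at 30d than at 3d. For each both 30d libraries lay below both 3d libraries, in a comparison where 46.4% of all genes did not overlap. Gjb6 was higher at 30d than at 1d by 1.36 on the log2 scale, at 3.13 to 10.2 CPM over all libraries. Cx3cr1, the fractalkine receptor of macrophages, was measured at 8.13 and 9.92 CPM at 1d and 5.64 and 5.06 CPM at 3d, a log2 fold change of -0.75 that was lost without either library of 0d, 1d or 3d (adjusted p of 0.0563 to 0.908) or robust estimation (0.0718). Myh1, a myosin of fast muscle fibres, was measured at 1.87 and 1.57 CPM at 3d and 4.97 and 3.8 CPM at 30d, a log2 fold change of 1.35 that was lost without either 3d library (adjusted p of 0.316 and 0.454) or robust estimation (0.0582).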

How the results depend on the processing

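Of the 600 values that 60 member fold changes took under 10 other settings, 593 kept their direction. The 7 that turned, none farther than 0.0122 from 0 on the log2 scale, include Cdh19 at 30d against 0d, which was 0.00565 with library totals alone, 0.00205 with the length trend removed and 0.00368 with the GC trend removed. Of the 480 with a library left out, 438 kept their direction. Called genes were counted in 6 comparisons, first those of 1d, 3d and 30d with 0d, then 3d with 1d, and last 30d with 3d and with 1d. In this order the counts were 60, 38, 4, 50, 162 and 99. They were 95, 89, 177, 99, 358 and 213 with no filter on low counts, and 110, 109, 184, 110, 378 and 229 with DESeq2. Without robust estimation they were 20 for 3d and 0 for 30d against 0d, and 92 for 30d against 3d. With only the 2 groups compared they were 121 for 3d and 0 for 30d against 0d, 260 for 3d against 1d and 273 for 30d against 3d. With the length trend removed, 7 were called at 30d against 0d. With the replicate block the counts were 69 for 30d against 0d, 77 for 3d against 1d and 159 for 30d against 1d, and the block changed no call of a member. The cause of these shifts was not tested.

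The markers called changed under 3 settings. With only the 2 groups compared, Fabp7 passed at 1d (1 marker), Fabp7 and Glul at 3d (2), Fabp7, Glul and Ednrb for 3d against 1d (3), and 0 passed in 30d against 0d and 30d against 1d. Without robust estimation 0 passed at 30d against 0d, and DESeq2 called 2 for 30d against 3d, Apoe and Ednrb. With a library left out, called genes ranged from 26 to 111, 1 to 121, 1 to 202, 5 to 117, 12 to 525 and 51 to 359 in the order above, and called markers from 0 to 1, 0 to 2, 0 to 3, 0 to 1, 0 to 3 and 0 to 1. The fewest calls in the comparisons with 3d came without a 3d library, and no comparison had more called markers than without a 30d library. Without 30d replicate 1 they were Apoe, Fabp7 and Glul for 30d against 3d, and without 30d replicate 2 the same 3 for 30d against 0d. No marker was called in any comparison with 30d without either 3d library, nor for 30d against 1d without 1d replicate 2. These counts include Apoe, which was picked for its 30d libraries, and nothing is read from its part in them. Where 1 library of a day is left, it is assumed to vary like the other days. Apoe against the other members, -0.13 for 30d minus 0d, ranged from -0.18 to -0.08 with a library left out. It was -0.19 with the summed CPM and 0.11 with the median of the other 9, the latter with a pooled SD of 0.32.

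With a library left out, these log2 fold changes changed sign in at least 1 case. At 1d against 0d they were Cdh19 (-0.14 to 0.20), Sox10 (-0.0905 to 0.0412) and Gfap (-0.093 to 0.951). At 3d against 0d they were Ednrb (-0.0607 to 0.175), Sox10 (-0.044 to 0.0904) and Gfap (-0.0768 to 0.97). At 30d against 0d they were Glul (-0.0471 to 0.272), Cdh19 (-0.18 to 0.16), Sox10 (-0.222 to 0.0221), Gfap (-0.25 to 0.79) and S100b (-0.18 to 0.0418). Fold changes of 5 members turned for 3d against 1d, among them Apoe (-0.0253 to 0.059), of 4 for 30d against 3d, among them Fabp7 (-0.0171 to 1.09), and of 8 for 30d against 1d, among them Fabp7 (-0.47 to 0.64). None of these passed in the fit over all libraries. The genes past the threshold in the other lists, the clock and glucocorticoid lists not among them, kept their direction under all 18 alternatives, set after these genes were known, and passed in 9 (Lum at 1d) to 16 of them. With 2 pools a day, the spread between pools limits what can be called.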

Other observations

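Other cell types of the ganglion were measured by their markers. Of 12 macrophage markers, Cx3cr1 was the 1 past the threshold. It was measured at 10.8 and 10.9 CPM at 0d, and its log2 fold change at 3d was -1.02 ± 0.14 (adjusted p = 0.00794, edgeR), which was lost without either 3d library (0.143 and 0.266). Lyz2, a lysozyme of myeloid cells and the highest of the list per kb, differed from 0d by 0.33 ± 0.13 at 30d (adjusted p = 0.371). Of 6 fibroblast markers, Lum, a matrix proteoglycan, was measured at 66.1 and 53.6 CPM at 0d and 43.1 and 41.9 CPM at 1d and fell by 0.49 ± 0.089 on the log2 scale (adjusted p = 0.0326), a call lost without 0d replicate 1 or either 1d or 3d library (0.0871 to 0.37), without robust estimation (0.057), with only the 2 groups compared (0.099), with the replicate block (0.0584) and with the length trend removed (0.0806). The 6 summed to 1920 CPM in 0d replicate 1 and to 1290 to 1410 CPM in the other 7 libraries. Dcn, the highest of them per kb, differed from 0d by -0.21 ± 0.096 at 1d.

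None of the 7 endothelial, 4 mural or 11 sensory neuron markers passed in any comparison, and their sums varied by 1.16, 1.12 and 1.07 times between the lowest and the highest library. Cldn5, a tight junction protein, Rgs5, a pericyte gene, and Nefl, a neurofilament, were the highest of these lists per kb and differed from 0d at 30d by -0.18 ± 0.12, -0.18 ± 0.071 and -0.09 ± 0.035. The 5 spinal cord glia markers summed to 20.0 to 24.6 CPM, led per kb by Aldh1l1, and the 4 melanocyte markers, led by Pmel, to 1.58 to 2.68 CPM. None of these passed. The 6 skeletal muscle markers, led by Acta1, summed to 18.0 to 127 CPM, and Myh1 was lower than at 0d by -1.47 ± 0.27 at 1d (adjusted p = 0.0324) and -1.61 ± 0.27 at 3d (adjusted p = 0.0237). Without 0d replicate 1 these were -1.01 (adjusted p = 0.494) and -1.15 (0.201), and the first was also lost without either 1d or 3d library (0.0692 to 0.339) and the second without either 3d library (0.318 and 0.547). Both were lost without robust estimation (0.0691 and 0.0629), and the first with only the 2 groups compared (0.0627). The red blood cell markers, led by Hbb-bs, and the neutrophil markers, led by S100a9, gave no call.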
